A study of Homo sapiens with 12 samples.

Results

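The 10 genes described here encode 7 Toll-like receptors (TLR1, TLR2, TLR4, TLR5, TLR6, TLR7 and TLR8), the co-receptors CD14 and LY96, and the adaptor MYD88. They were taken by gene symbol from a table of 36866 genes, and all 10 were found in it. The table holds polyadenylated RNA sequencing of 12 libraries in 4 groups of 3. THP-1 and U-937 are established monocytic lines of acute myeloid leukemia with a complex karyotype, each derived from 1 patient, so that every comparison is within 1 line or of 1 line with 1 other. The groups were THP-1 cells with DMSO, THP-1 cells with honokiol, U-937 cells with DMSO and U-937 cells with honokiol. Both lines were grown in the same base medium with fetal bovine serum, at a share that the labels and the methods do not give alike, and were exposed for 24 h. The controls received 0.1% DMSO, and honokiol, a natural small molecule from magnolia bark, was given at 20 or 35 μM. The labels do not tie a dose to a line, so that the dose and the line cannot be told apart wherever the honokiol responses of the lines are set side by side. Nothing in the labels says that the 3 libraries of a group came from separate cultures, and p-values then measure only the spread between these libraries.

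Toll-like receptors are membrane proteins that bind molecules shared by many microbes. TLR4 recognizes bacterial lipopolysaccharide together with LY96 (also called MD-2), and CD14 hands the lipopolysaccharide to this complex; TLR2 pairs with TLR1 or TLR6 to bind lipopeptides, TLR5 binds flagellin, and TLR7 and TLR8 sense single-stranded RNA in endosomes. All 7 receptors signal through MYD88, which recruits IRAK kinases and leads to NF-κB activation and cytokine transcription, and monocytes are among the cells that carry most of these receptors.

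TLR1 and TLR6 lie beside each other on chromosome 4 and resemble each other so closely that short reads can fit both. On GRCh38, TLR1 spans chr4:38790677-38805578 and TLR6 chr4:38823715-38856817 in the table, both on the minus strand. Their coding sequences (2361 bases for TLR1 and 2391 for TLR6) were identical at 1819 of 2352 aligned bases, or 77.3%, and shared an uninterrupted identical run of 218 bases. Of all 100-base windows of the transcript, 119 of 2750 in TLR1 and 119 of 5781 in TLR6 were the same in the other gene, which is 4.33% and 2.06%. The following 120 coding bases, read from the reference genome, are shown because they hold the edge of this run, and the 4 bases that differ are in capitals. The TLR1 stretch is chr4:38797424-38797543 and the TLR6 stretch is chr4:38828051-38828170.
TLR1: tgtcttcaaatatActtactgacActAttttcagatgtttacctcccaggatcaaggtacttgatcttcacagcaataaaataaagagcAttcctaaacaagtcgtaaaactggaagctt
TLR6: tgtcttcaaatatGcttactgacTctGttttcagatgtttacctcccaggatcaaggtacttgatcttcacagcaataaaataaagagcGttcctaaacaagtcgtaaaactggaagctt
Fragments that lie wholly in the run cannot be assigned to either gene by sequence. Low values of TLR1 or TLR6 in the presence of the other are therefore uncertain, by an amount that was not examined. GENCODE 29 also starts some TLR1 transcripts inside the first exon of TLR6. Of the other members, TLR4 (chr9:117704175-117715775, plus strand) shared 3.23% of its windows with an overlapping gene of the same strand, AL160272, whose entries had at most 132 counts in a library, and the remaining 7 shared none. The antisense gene over TLR8, TLR8-AS1, had at most 4 counts in a library.

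The other members lie apart from these on the same build. TLR2 (ENSG00000137462) is at chr4:153684070-153705259 and MYD88 (ENSG00000172936) at chr3:38138478-38143022, both on the plus strand, and CD14 (ENSG00000170458) at chr5:140631728-140633701 on the minus strand. TLR7 (ENSG00000196664, chrX:12867072-12890361) and TLR8 (ENSG00000101916, chrX:12906620-12923169) are neighbours on the plus strand, and TLR5 (ENSG00000187554) is at chr1:223109404-223143248 on the minus strand. TLR4 is ENSG00000136869, TLR1 ENSG00000174125, TLR6 ENSG00000174130, and LY96 ENSG00000154589.

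The bases upstream of the RefSeq start of each gene were searched for the core motifs of transcription factors known in monocytes. No RefSeq promoter sequence (GRCh38.p14) was given for TLR1 and TLR7, and LY96 was left out of the search by choice. The other 7 of the 10 members were searched. The RefSeq start often lies inside the gene as the table has it: 5 of the 7 windows (all but those of TLR6 and TLR8) overlap an annotated exon of GENCODE 29, and the stretches shown for TLR4, CD14, MYD88 and TLR2 lie wholly within the deposited span of the gene. The motifs, on both strands and within 250 bases of the start, were GAGGAA for PU.1, TTGCNNAA for C/EBP, TGANTCA for AP-1, GGGA, any 4 bases and CC for NF-κB and GGGCGG for Sp1, and these letters occurred in 23.6%, 9.05%, 6.57%, 22.6% and 42.6% of 35116 promoter windows. Some Sp1 and NF-κB matches can overlap each other. The 30 bases around the match nearest to the start are shown for the 4 members whose levels are described first, with matches in capitals.
TLR4: gtgGGGCGGctcGAGGAAgagaagacacca
CD14: ggggctggctcgGAGGAAgagaggtgggga
MYD88: ccgcaggagaaaGAGGAAgcgctggcagac
TLR2: ccggccgcgcGGACTTTCCCttttgcttac
The TLR4 stretch (chr9:117704351-117704380) holds a Sp1 and a PU.1 match, and its whole window holds 4 PU.1 cores, a number reached by 18 of the 35116 windows (0.0513%). The number 4 was taken from TLR4 itself, which had the most PU.1 cores of the windows searched. Such a share was computed for no other motif, so that it only describes this window. The CD14 stretch (chr5:140633254-140633283, minus strand) holds the only PU.1 core of its window, which also has 1 AP-1 match. The MYD88 stretch (chr3:38138631-38138660) holds 1 PU.1 core, beside 4 Sp1 matches farther upstream. The TLR2 stretch (chr4:153684235-153684264) holds 1 of 2 NF-κB matches, read on the reverse strand, and no PU.1 core. TLR5 had 2 Sp1 matches and TLR8 1 C/EBP match. The window of TLR6 (chr4:38856818-38857067, minus strand) is shown whole because TLR6 differed most between the lines; it has 1 match, a PU.1 core on the reverse strand.
TLR6: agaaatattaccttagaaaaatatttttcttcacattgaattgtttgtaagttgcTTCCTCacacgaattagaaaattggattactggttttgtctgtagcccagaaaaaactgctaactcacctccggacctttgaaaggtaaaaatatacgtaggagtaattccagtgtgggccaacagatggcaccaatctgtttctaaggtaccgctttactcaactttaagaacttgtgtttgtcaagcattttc
A match is a description of the letters and not a binding site.

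Levels are given in FPKM (fragments per kilobase of transcript scaled to the mapped fragments of the library), which is per length and so allows genes to be compared. The total count per library ran from 57406966 to 75065752. The counts are estimates. Of the values from 1 to 20, 4 was the most frequent (17264 values, against 10103 at 1). A fragment was therefore taken to be worth about 4 counts, which was not tested. Fewer fragments than counts would then stand behind each value. The share of mitochondrial genes was high in replicate 1 of the DMSO controls of each line (13.7% for THP-1, 12.6% for U-937) and between 5.61% and 7.55% in the other 10 libraries. All 8 monocytic markers examined (SPI1, CD33, LYZ, CSF1R, ITGAM, CD68, FCGR1A and PTPRC) were detected in every group, with summed levels of 343.91 to 779.38 FPKM, and CD3D, CD3E, EPCAM and HBA1 were under 0.5 FPKM throughout. Fewer cells of a type and less RNA per cell cannot be told apart in such libraries.

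The adaptor had the highest mean of the members in all 4 groups, and the order below it differed between the lines. In THP-1 with honokiol, however, the libraries of MYD88 and CD14 overlapped. In replicate 2 CD14 was at 8.75 FPKM and MYD88 at 8.24. In DMSO-treated THP-1 cells MYD88 stood at 14.8 ± 2.01 FPKM (SD, n = 3), followed by TLR2 at 3.10 ± 0.57, TLR4 at 2.82 ± 0.59 and CD14 at 2.61 ± 0.68. The libraries of TLR2, TLR4 and CD14 overlapped, so these 3 cannot be ordered. TLR6 came next at 1.61 ± 0.36 FPKM, below every CD14 library, followed by TLR1 at 0.87 ± 0.26 and LY96 at 0.72 ± 0.48, which overlapped. TLR7, TLR8 and TLR5 had means of at most 0.06 FPKM.

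In DMSO-treated U-937 cells the lipopolysaccharide receptor led the receptors. MYD88 was at 21.2 ± 3.72 FPKM, TLR4 at 5.72 ± 1.63, LY96 at 2.04 ± 0.39 and TLR2 at 1.16 ± 0.43 (SD, n = 3), and the libraries of MYD88, TLR4, LY96 and TLR2 did not overlap with each other. CD14 at 0.76 ± 0.52 FPKM overlapped with TLR2 above it and with TLR1 at 0.18 ± 0.04 below it. TLR6 was at 0.13 ± 0.06, TLR5 at 0.08 ± 0.04, TLR8 at 0.02 ± 0.01 and TLR7 at 0.003 ± 0.006 FPKM. TLR2, which overlapped with TLR4 in THP-1, thus lay below both TLR4 and LY96 in every U-937 library.

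**Figure D1:**
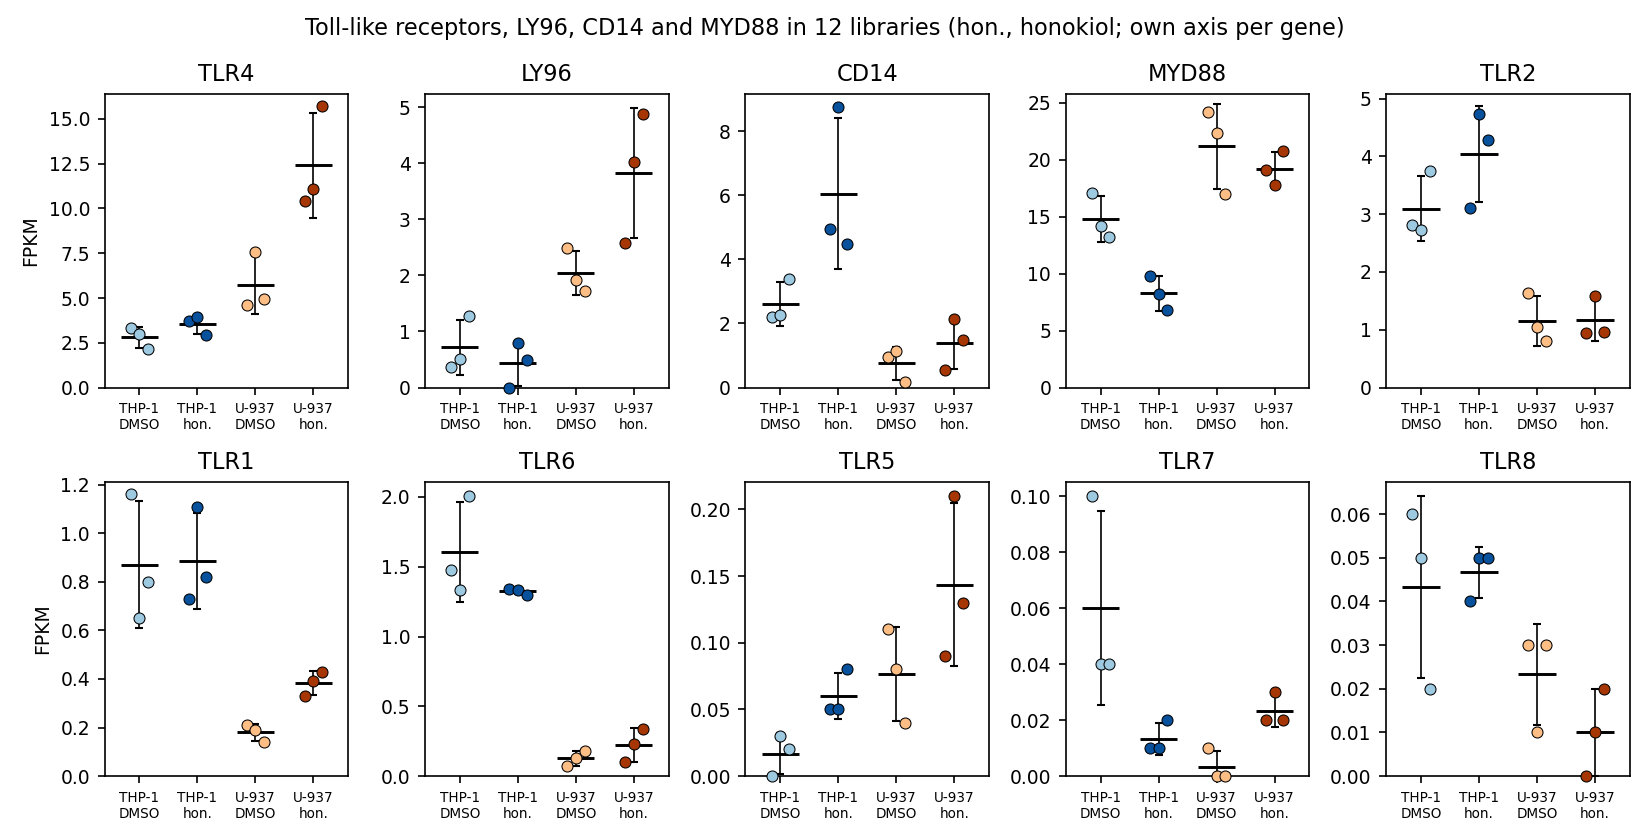
Levels of the 10 members in FPKM (vertical axes, each from 0 and on its own scale) in 12 libraries; points are libraries, lines are means and bars are SD of 3 libraries. MYD88 has the highest mean in every group, but its libraries overlap with those of CD14 in THP-1 with honokiol. TLR4 and LY96 lie higher in U-937 than in THP-1, and TLR1, TLR2, TLR6 and CD14 lie lower with DMSO. TLR5, TLR7 and TLR8 do not exceed 0.21 FPKM.

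The DMSO libraries were compared to ask how the lines differ before treatment. TLR1, TLR2, TLR6 and CD14 were lower in U-937 cells, TLR4 was higher with a change just under the limit, and LY96 and MYD88 did not pass. A gene was called when its adjusted p was under 0.05 and its log2 fold change was beyond 1 in either direction (quasi-likelihood test of edgeR, adjusted after Benjamini and Hochberg over 14617 genes). Of the 7 members tested, 4 were called lower and 0 higher, where 18.4% of all genes tested were called lower and 13.9% higher in U-937. TLR1 and TLR6, which passed the filter on low values only through THP-1, had to differ. Of the other 5 members 2 were called lower and 0 higher. Their median log2 difference of 0.46 is the value of MYD88, whose libraries overlapped, with -0.04 over all genes tested. The values over all genes include genes that passed through a single line, and shares without these were not computed. Nor was the share of all genes whose libraries did not overlap between the lines.

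TLR6, the partner of TLR2 for diacylated lipopeptides, showed the widest gap. It was at 1.48, 1.33 and 2.01 FPKM in the THP-1 libraries and at 0.07, 0.13 and 0.18 in the U-937 libraries, which were all lower. The log2 difference was -3.74 ± 0.39 (SE), without a p-value because TLR6 passed the filter only through THP-1. TLR1, the partner for triacylated lipopeptides, was at 1.16, 0.65 and 0.80 FPKM in THP-1 and at 0.21, 0.19 and 0.14 in U-937, again without overlap. Its log2 difference was -2.31 ± 0.40 (SE), and its p-value is left out for the same reason. With no filter (0.5 FPKM in at least 3 libraries otherwise) the log2 differences of TLR6 and TLR1 were -3.70 and -2.28, and on the log2(FPKM + 0.5) scale that of TLR1 was under the limit at -0.99. The U-937 libraries held 29 to 82 counts of TLR6 and 49 to 76 of TLR1, in genes that share part of their sequence as shown above.

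TLR2, the common partner of both, was at 2.81, 2.73 and 3.75 FPKM in THP-1 and at 1.64, 1.04 and 0.80 in U-937. Every THP-1 library exceeded every U-937 library, and the log2 difference was -1.44 ± 0.32 (SE; edgeR adjusted p = 0.00610). Relative to TLR4 in the same library, TLR2 was at ratios of 0.85, 0.92 and 1.73 (THP-1) and of 0.35, 0.14 and 0.16 (U-937). This ratio does not depend on the library's total, and its groups did not overlap; an exact permutation test with 3 against 3 cannot go below p = 0.1.

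CD14, the lipopolysaccharide-binding co-receptor, went with the TLR2 group. It was at 2.19, 2.25 and 3.39 FPKM in THP-1 and at 0.96, 1.14 and 0.17 in U-937, where DMSO replicate 3 was lowest at 22 counts. The log2 difference was -1.80 ± 0.63 (SE; edgeR adjusted p = 0.0429). The adjusted p of CD14 was over 0.05 with no filter (0.0619) and in 5 of the 6 fits that left out 1 library, in which it reached 0.0882. Without U-937 DMSO replicate 3, the lowest library, the log2 difference was -1.28.

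TLR4 was at 3.31, 2.97 and 2.17 FPKM in THP-1 and at 4.62, 7.59 and 4.94 in U-937, with every U-937 library above every THP-1 library. The log2 difference of 0.96 ± 0.25 (SE; edgeR adjusted p = 0.0143) lay just inside the limit of 1, and it passed the limit without THP-1 DMSO replicate 1 (1.07) and without U-937 DMSO replicate 1 (1.11) or 3 (1.12). Its adjusted p was over 0.05 without THP-1 DMSO replicate 2 (0.0539; log2 difference 0.89) or 3 (0.0618; 0.71). LY96, which TLR4 needs to bind lipopolysaccharide, was at 0.37, 0.51 and 1.27 FPKM in THP-1 and at 2.48, 1.91 and 1.73 in U-937. Its groups did not overlap either, with a log2 difference of 1.45 ± 0.53 (SE; edgeR adjusted p = 0.0513). Without THP-1 DMSO replicate 3, which held 52 counts of LY96 against 16 and 22 in the other libraries, the log2 difference was 2.02 (adjusted p = 0.0175 by edgeR). In the other 5 fits that left out 1 library it ran from 1.10, without THP-1 DMSO replicate 1, to 1.62, and the adjusted p lay between 0.0616 and 0.160. Over all 16 alternatives, by edgeR, DESeq2 or limma, LY96 was called in 5 and not in 11, with adjusted p of 0.0119 to 0.165. MYD88 was at 17.08, 14.22 and 13.20 FPKM in THP-1 and at 24.19, 22.35 and 17.02 in U-937, groups that overlapped by 1 library each, with a log2 difference of 0.46 ± 0.22 (SE; edgeR adjusted p = 0.113).

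**Figure D2:**
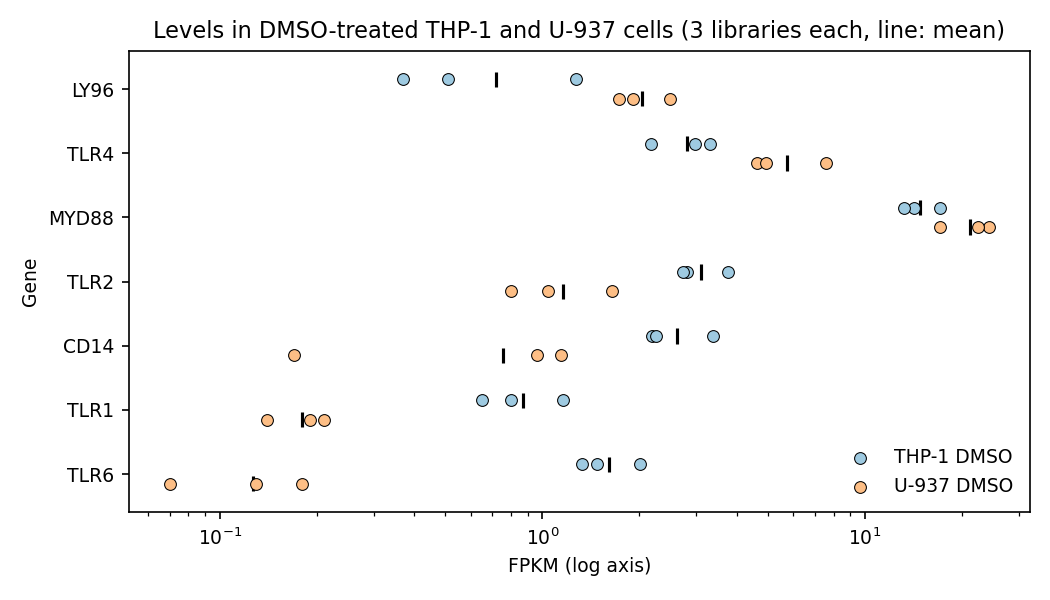
FPKM (horizontal log axis) of the 7 tested members (vertical axis) in the 3 DMSO libraries of THP-1 (blue) and of U-937 (orange); the short black lines are means. TLR6, TLR1, CD14 and TLR2 lie to the left in U-937, LY96 and TLR4 to the right, and MYD88 overlaps.

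Honokiol was compared with DMSO in each line to ask which of these genes respond to the compound. With honokiol, CD14 lay higher and MYD88 lower in THP-1 cells, and TLR4 and LY96 lay higher in U-937 cells, but no member passed the adjusted threshold in either line. In THP-1, 7 members were tested and 0 were called, against 0.0411% of 14600 genes. At an unadjusted p under 0.05, 1 member was higher (CD14; 6.84% of all genes) and 1 lower (MYD88; 6.22% of all genes). Of the tested members the same 2 had libraries that did not overlap, where 13% of all genes tested lay wholly higher and 7.62% wholly lower. Below the filter, TLR5 lay wholly higher and TLR7 wholly lower, at few counts, and no share over all genes below the filter was computed.

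In U-937, 5 members were tested and 0 were called, against 0.0947% of 13726 genes. TLR4 was the only tested member with an unadjusted p under 0.05 and lay higher, and 0 were lower, where 8.25% of all genes were higher and 8.44% lower. TLR4 and LY96 lay wholly above their controls, as 16.7% of all genes did, and 0 of the 5 lay wholly below, as 7.5% of all genes did. Below the filter, TLR1 and TLR7 lay wholly higher, again without a share over all genes below it. Over the tested members the median log2 fold change was -0.04 (THP-1; -0.001 over all genes) and 0.75 (U-937; 0.02 over all genes). The U-937 median is the value of CD14 alone, whose libraries overlapped there. DESeq2 called 1 member in each line, CD14 in THP-1 and TLR4 in U-937, among 250 and 223 genes in all where the quasi-likelihood test called 6 and 13. MYD88 in THP-1 also had a DESeq2 adjusted p of 0.00592, and missed the call on the fold limit alone (log2 fold change -0.91).

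For the receptor complex that binds lipopolysaccharide, both genes of the complex lay above their controls in U-937 cells, while their libraries overlapped in THP-1. TLR4 in U-937 cells was at 4.62, 7.59 and 4.94 FPKM with DMSO and at 10.40, 11.07 and 15.74 with honokiol, from 4127 to 14492 counts per library. All 3 honokiol libraries were above all 3 controls, a 2.05-fold difference with a log2 SE of 0.24 (unadjusted p = 0.00238 by edgeR's quasi-likelihood test; adjusted p = 0.116). Without DMSO replicate 1, the library with the high mitochondrial share, the log2 fold change was 0.92, and over all fits that left out 1 library it ran from 0.81 to 1.28. TLR4 in THP-1 was at 3.31, 2.97 and 2.17 FPKM with DMSO and at 3.70, 3.95 and 2.93 with honokiol, which overlapped (log2 fold change 0.26 ± 0.22).

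LY96 in U-937 was at 2.48, 1.91 and 1.73 FPKM with DMSO and at 2.58, 4.03 and 4.88 with honokiol. The groups did not overlap, although honokiol replicate 1 was only just above DMSO replicate 1, and the log2 fold change was 0.82 ± 0.36 (SE; unadjusted p = 0.0511 and adjusted p = 0.302 by edgeR). The ratio of LY96 to TLR4 within a library was 0.54, 0.25 and 0.35 with DMSO and 0.25, 0.36 and 0.31 with honokiol, so that the levels of both genes kept overlapping proportions. In THP-1, LY96 was at 0.37, 0.51 and 1.27 FPKM with DMSO and at 0, 0.80 and 0.49 with honokiol, from 0 to 52 counts. These overlapped, and the SE of 1.04 exceeded the log2 fold change of -0.79; without honokiol replicate 1, the library at 0, the value was -0.20.

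CD14 in THP-1 cells was at 2.19, 2.25 and 3.39 FPKM with DMSO and at 4.94, 8.75 and 4.48 with honokiol. All honokiol libraries were above all controls, and replicate 2 stood highest. The difference was 2.24-fold with a log2 SE of 0.32 (unadjusted p = 0.00620 by edgeR's quasi-likelihood test; adjusted p = 0.228). Without honokiol replicate 2 the log2 fold change was 0.80 instead of 1.16, and without DMSO replicate 1 it was 1.10. In U-937 CD14 was at 0.96, 1.14 and 0.17 FPKM with DMSO and at 0.54, 2.15 and 1.47 with honokiol, groups that overlapped (log2 fold change 0.75 ± 0.72), and without DMSO replicate 3, the lowest library, the value was 0.26. It was likewise 0.32 without honokiol replicate 2, so the U-937 value rests on single libraries.

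The adaptor MYD88 in THP-1 was at 17.08, 14.22 and 13.20 FPKM with DMSO and at 9.83, 8.24 and 6.78 with honokiol, from 2132 to 5018 counts. Every honokiol library was below every control, a log2 fold change of -0.90 ± 0.20 (SE; unadjusted p = 0.00199 and adjusted p = 0.168 by edgeR), or a level 0.53 times that of the controls. The library with the high mitochondrial share was also the highest in MYD88, and without it the log2 fold change was -0.73. In U-937 MYD88 was at 24.19, 22.35 and 17.02 FPKM with DMSO and at 19.06, 17.80 and 20.79 with honokiol, which overlapped (-0.24 ± 0.18 on the log2 scale).

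None of the lipopeptide receptors gave an unadjusted p under 0.05 with honokiol. TLR2 in THP-1 was at 2.81, 2.73 and 3.75 FPKM with DMSO and at 3.11, 4.73 and 4.29 with honokiol (log2 fold change 0.33 ± 0.20, SE), and in U-937 at 1.64, 1.04 and 0.80 and at 0.95, 1.59 and 0.97 (-0.10 ± 0.35). Both pairs of groups overlapped. TLR1 in THP-1 was at 1.16, 0.65 and 0.80 FPKM with DMSO and at 0.73, 1.11 and 0.82 with honokiol, and TLR6 at 1.48, 1.33 and 2.01 and at 1.34, 1.33 and 1.3. These overlapped, with log2 fold changes of -0.04 ± 0.32 and -0.33 ± 0.21. In U-937 neither gene passed the filter. TLR1 there was at 0.21, 0.19 and 0.14 FPKM with DMSO and at 0.33, 0.39 and 0.43 with honokiol, without overlap and from 49 to 138 counts, and TLR6 was at 0.07, 0.13 and 0.18 and at 0.10, 0.23 and 0.34, which overlapped.

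TLR5, TLR7 and TLR8 passed the filter in no comparison and entered only the fits with no filter. In these, 0 of 10 members were called for honokiol in THP-1 or in U-937, where 0 of 33538 and 12 of 31918 genes were. TLR5, the flagellin receptor, was at 0, 0.03 and 0.02 FPKM in the THP-1 controls and at 0.05, 0.05 and 0.08 with honokiol, without overlap and at 0 to 50 counts, and lay between 0.04 and 0.21 in the U-937 libraries. TLR8 lay between 0.02 and 0.06 FPKM in the THP-1 libraries and did not exceed 0.03 in those of U-937. TLR7 was at 0.10, 0.04 and 0.04 FPKM with DMSO and at 0.01, 0.01 and 0.02 with honokiol in THP-1, and at 0.01, 0 and 0 with DMSO and at 0.02, 0.03 and 0.02 with honokiol in U-937. At 111 counts or fewer in any library, the levels of these 3 genes are at the edge of what the depth shows.

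**Figure D3:**
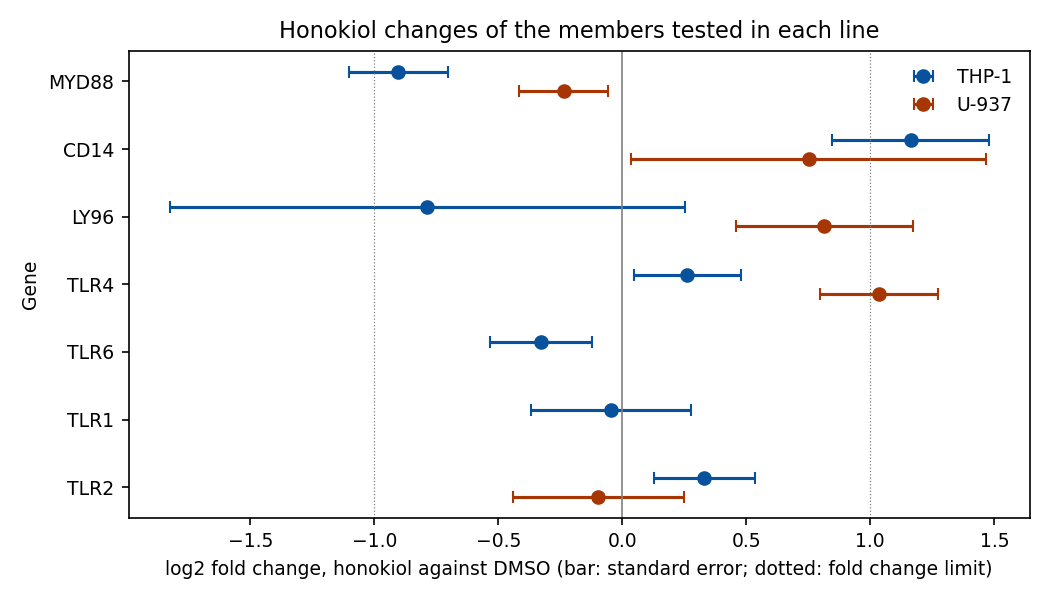
Log2 fold change of honokiol against DMSO (horizontal axis; bars are standard errors) for the members tested in THP-1 (blue, 7 genes) and in U-937 (brown, 5 genes); dotted lines mark a log2 fold change of 1 in either direction. CD14 in THP-1 and TLR4 in U-937 lie beyond the limit, MYD88 in THP-1 lies at -0.90, and no member had an adjusted p under 0.05.

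Whether the lines differed in their response was tested over all 12 libraries as the difference of the honokiol changes (U-937 minus THP-1). Of 7 members 0 passed an adjusted p under 0.05, where 0.111% of 16283 genes did, and 1 member, MYD88, had an unadjusted p under 0.05, where 9.37% of all genes did. The difference for MYD88 was 0.66 ± 0.28 on the log2 scale (SE; unadjusted p = 0.0381 and adjusted p = 0.501 by edgeR). For TLR4 it was 0.76 ± 0.35 (unadjusted p = 0.050 and adjusted p = 0.532 by edgeR). The larger value of TLR4 in U-937 and of MYD88 and CD14 in THP-1 was therefore not shown to be particular to a line.

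The other genes of the pathway were described from 9 lists of 73 genes, 71 of which were in the table. In THP-1, 59 were tested, with 4 higher and 5 lower at an unadjusted p under 0.05 (6.84% and 6.22% of all genes) and 0 called (0.0411% of all genes). In U-937, 56 were tested, with 5 higher and 4 lower (8.25% and 8.44% of all genes) and 1 called (0.0947% of all genes). The counts at an unadjusted p under 0.05 are near the shares over all genes. The 1 called of 56 is above its share but is a single gene. Over the tested pathway genes the median log2 fold change was -0.03 (THP-1) or 0.05 (U-937). The adaptors beside MYD88 gave 0 genes at an unadjusted p under 0.05 in either line (TIRAP, TICAM1, TICAM2, SARM1 and PIK3AP1, with 5 tested for THP-1 but 4 for U-937).

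The called gene was UBE2N, the ubiquitin-conjugating enzyme that acts with TRAF6 downstream of MYD88. It fell in U-937 cells from a mean of 15.8 to 8.06 FPKM (log2 fold change -1.06 ± 0.12, SE; edgeR adjusted p = 0.0337) while THP-1 gave -0.33 (adjusted p = 0.358). In U-937 the adjusted p of UBE2N was over 0.05 in each of the 6 fits that left out 1 library (0.0656 to 0.168) and with a replicate block (0.217), at log2 fold changes of -1.09 to -1.02. MAP3K8, the kinase that links the receptors to ERK, had a mean of 1.45 FPKM with DMSO and 4.22 with honokiol in U-937 (log2 fold change 1.45, adjusted p = 0.0687 by edgeR), and 4.39 and 6.70 in THP-1 (0.55, adjusted p = 0.227). TLR9, the receptor for unmethylated CpG DNA and not among the 10 members, lay below its controls in every library of both lines, with means of 2.28 and 1.19 FPKM in THP-1 and 1.01 and 0.65 in U-937 (log2 fold changes -0.99 and -0.74). Its adjusted p was 0.296 and 0.237. TLR3 and TLR10 had means of at most 0.013 FPKM in each of the 4 groups.

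Of the genes that act after the receptors in THP-1, TNF, a target cytokine, had means of 19.4 FPKM with DMSO and 5.72 with honokiol (log2 fold change -1.84, unadjusted p = 0.000842 and adjusted p = 0.136 by edgeR). DUSP1, a phosphatase that dampens the MAP kinases, had a log2 fold change of 1.08 and PELI2, a ubiquitin ligase that binds IRAK proteins, of 0.57. CTSL, a protease that processes endosomal receptors, had means of 47.4 and 146 FPKM in THP-1 (log2 fold change 1.57, adjusted p = 0.134) and was at most a mean of 0.25 in U-937. HMGB1, a nuclear protein that can act as an endogenous ligand, was at -0.49 on the log2 scale in THP-1 cells and at 0.34 in U-937. In U-937 cells CYLD, a deubiquitinase, had 0.56 and AP3B1, a sorting adaptor of endosomal receptors, 0.41. None of these passed the adjusted threshold.

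**Figure D4:**
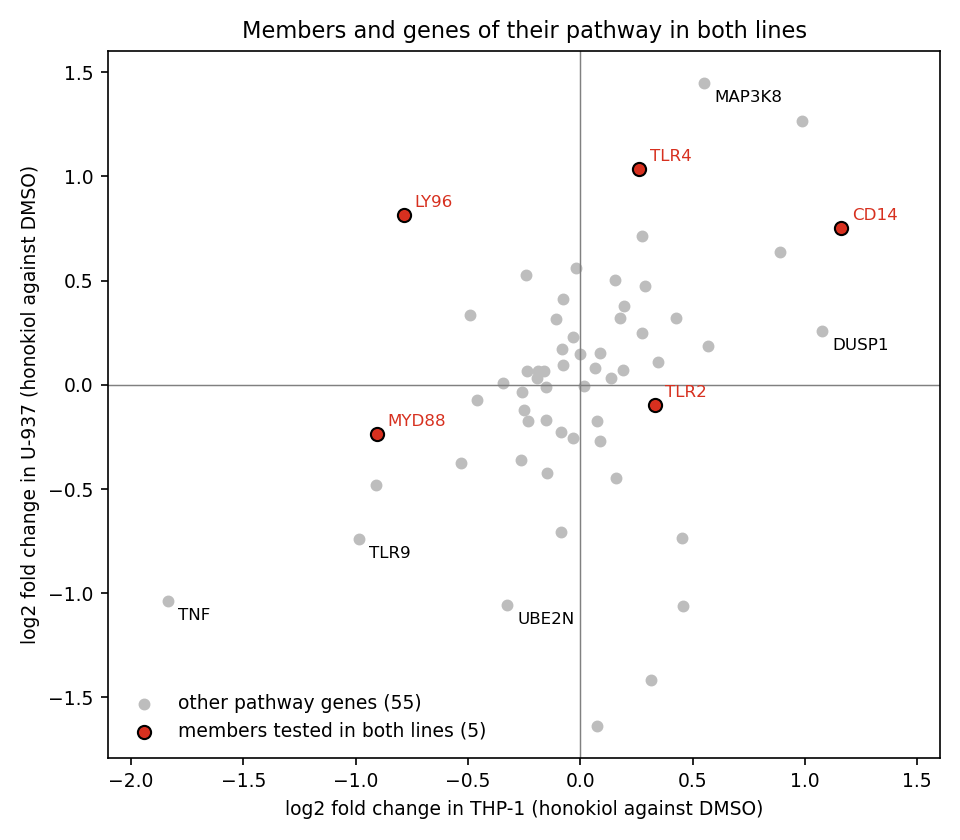
Log2 fold change of honokiol against DMSO in THP-1 (horizontal axis) and in U-937 (vertical axis) for the 5 members tested in both lines (red) and 55 other genes of the pathway (grey). CD14 and TLR4 lie higher on both axes, MYD88 lower on both, LY96 at -0.79 in THP-1 and 0.82 in U-937, and UBE2N at -0.33 and -1.06.

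Of 6 markers of macrophage maturation, MARCO and ITGAX had higher mean levels with honokiol in both lines, as CD14 and TLR4 did, and none passed the adjusted threshold. The summed level of all 6 (ITGAX, MRC1, CD163, MSR1, MARCO and FCGR3A) was 7.94 to 11.28 FPKM with DMSO and 11.83 to 16.24 with honokiol in THP-1, and 4.38 to 8.40 and 8.31 to 17.54 in U-937, where the sums overlapped. The sum came almost wholly from 2 genes: for MARCO the log2 fold change was 1.11 (THP-1; edgeR adjusted p = 0.279) and 1.20 (U-937; adjusted p = 0.250), and for ITGAX it was 0.33 and 0.67. CD163 had lower means with honokiol, 0.67 and 0.40 FPKM in U-937 and 0.04 and 0.017 in THP-1, with libraries that overlapped. MRC1, MSR1 and FCGR3A were under 0.5 FPKM in every library, and 4 of the 6 genes were not tested in either line. The part of maturation in the levels of CD14 and TLR4 was not tested.

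The genes whose pattern was most like that of each member were found by Pearson's r of log2(FPKM + 0.5) over the 12 libraries, which share their line and treatment, so that r mostly follows the groups. TLR4 was most like ABHD2 (r = 0.98) and MOSPD1 (0.97), CD14 like THBD (0.97) and CTSZ (0.95), LY96 like CEBPE (0.95) and JUN (0.95), and MYD88 like SCAMP2 (0.97) and INTS6L (0.97). THBD encodes thrombomodulin, and in THP-1 its mean was 34.8 FPKM in the controls and 91.8 with honokiol, and in U-937 cells 13.4 and 19.9. CEBPE, a myeloid transcription factor, had means of 7.65 and 6.90 FPKM in THP-1 and 19.3 and 32.3 in U-937, the same order of groups as LY96. TLR2 was most like NCF1C (0.98) and CCND1 (0.98), TLR1 like WSB2 (0.98) and UBE2J1 (0.98), and TLR6 like BMP8A (0.99) and IPMK (0.99). Among the members themselves r ran from -0.82 (TLR2 with MYD88) to 0.91 (TLR1 with TLR6, whose transcripts hold the identical stretch shown above), with 0.90 for TLR2 with CD14 and 0.79 for TLR4 with LY96.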

How the data were processed

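Poly(A) RNA of THP-1 and U-937 cells was sequenced as paired ends by the authors. The submitters' processing notes name HISAT2 2.0, StringTie 1.3.0 and Bowtie 0.12.2, and the mouse build mm8, although the deposited gene identifiers and coordinates are human (35762 of 36866 genes were found in GENCODE 29 on GRCh38). The labels and the methods name different instruments and RNA amounts, and the series text speaks of a microarray. The authors deposited one table of estimated counts (whole numbers) and FPKM values per gene and library, and these deposited counts entered the tests. Genes with at least 0.5 FPKM in at least 3 libraries of a comparison were tested with edgeR 4.0.16 (R 4.3.3; TMM, quasi-likelihood test, Benjamini-Hochberg over all genes tested). SE is the absolute log2 fold change over the square root of F. The steps were tested on simulated data. Alternatives were DESeq2 1.42.0, limma 3.58.1 on log2(FPKM + 0.1, 0.5 or 1), other filters and normalization, counts divided by 4, 1 fit of all 12 libraries, a replicate block, and each library left out; their use for UBE2N was added after seeing the data. Members and lists were chosen with earlier results of these data known. All 10 members are named. Pathway genes were named when their unadjusted p was under 0.05 and groups did not overlap (up to 5 per direction by log2 fold change), and 2 genes per member were named by likeness of pattern. ITGAX, MARCO, TLR3, TLR10, the adaptors and other marker genes were named as members of their lists. IL1RL1 and TRIM30 had no row under these symbols. The depth of 57406966 to 75065752 counts per library, of which about 4 were taken to stand for a fragment, limits what can be seen of TLR5, TLR7 and TLR8.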

Additional observations from a re-analysis of the deposited data

Results flagged for a closer look

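TLR7, the endosomal receptor for single-stranded RNA, had a mean of 0.06 FPKM in DMSO-treated THP-1 cells. All 3 honokiol libraries of THP-1 lay below their controls and all 3 of U-937 above theirs, which set this gene apart for a closer look. The counts were 38, 16 and 14 with DMSO and 4, 3 and 8 with honokiol in THP-1, and 4, 0 and 0 with DMSO and 8, 12 and 8 with honokiol in U-937. TLR7 was below the filter in every comparison and entered only the fits with no filter. There 0 of 10 members were called for the difference between the lines, where 12 of 36866 genes were. How often other genes below the filter show such a pattern was not computed.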

How the results depend on the processing

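Over the alternatives the number of members called was 0 for the difference between the lines, 0 or 1 for honokiol in THP-1 and in U-937 (1 only with DESeq2, in both lines), and 1 to 5 for the lines with DMSO. In that comparison 2 members were called with a pseudocount of 1. Fits that left out 1 library called 1 to 5, with 2, 1 and 2 called without THP-1 DMSO replicates 1, 2 and 3, where TLR1 and TLR6 no longer passed the filter. For all genes the calls ran from 0 to 250 in THP-1, 0 to 223 in U-937 and 0 to 244 for the difference between the lines, against 6, 13 and 18. TLR1 in THP-1 changed sign with pseudocounts of 0.5, 0.1 and 1 (log2 fold changes 0.0250, 0.0398 and 0.0168), as did TLR2 in U-937 (0.0188, 0.0296 and 0.0125); over the fits that left out 1 library TLR1 ran from -0.24 to 0.28 and TLR2 from -0.36 to 0.27, and the cause was not tested. No other tested member changed direction in any of the 4 comparisons over these alternatives. In the honokiol comparisons the same replicate numbers did not pair the libraries. There r of deviations lay between -0.18 and 0.13 for the same numbers and between -0.13 and 0.26 for different numbers. Between the lines r was 0.04 to 0.14 for the same numbers and -0.16 to 0.05 for different numbers. Libraries of the same number were thus slightly more alike between the lines. With a replicate block 0 members were called for honokiol in either line and 3 for the lines with DMSO, where the adjusted p of CD14 was 0.0663.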
